A study of Mus musculus with 11 samples.

Results

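The genes described here are 36 lymphocyte and NK cell genes, chosen by name, in RNA from sorted hepatic sinusoidal ECs. All 36 were found among the 29307 genes of the count table, and each had counts in at least 1 library. They comprise 7 antigen receptor chains and coreceptors, 4 receptor-proximal signalling genes, 6 T cell surface molecules, *Tcf7* with 3 genes of cytokine signalling, 6 B cell genes and 9 NK and cytotoxic genes. Their counts were compared between the livers of 5 germ-free (GF) and 6 conventionally raised (CONV-R) mice, with 1 library per mouse. All 11 mice were male C57BL/6J animals aged 10 to 12 weeks that received the same diet, and the CONV-R mice were specific-pathogen-free animals of the same colonies. Liver cells were enriched with beads for CD146 and then sorted for CD31, CD105 and CD146, which are surface proteins of the endothelium. The methods name no marker by which lymphocytes were removed, and the study describes the sorted cells as highly pure ECs of low viability. As input for the amplification of whole cDNA, 20 ng of total RNA per mouse was used. The study reports fewer sorted ECs and less total RNA from GF than from CONV-R livers. Effects of this yield and of the group cannot be told apart here.

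T and B lymphocytes recognise antigen through receptors that cannot signal by themselves. In T cells the CD3 chains carry the signal, Lck and Zap70 phosphorylate it onward and Lat assembles the downstream complex. In B cells Cd79a and Cd79b do the work of the CD3 chains, and Blk is a kinase of the same Src family as Lck. NK cells lack a rearranged receptor and kill with perforin and granzymes under the control of receptors such as Ncr1 and Klrk1. The liver is rich in NK cells and T cells that crawl along the sinusoids in direct contact with the endothelium, and B cells also pass through these vessels.

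The 6 CONV-R libraries held 7922855 to 14669352 counts and the 5 GF libraries 7242717 to 16164588. Values are given as CPM, counts scaled to a common library size by TMM normalization, and, where genes are compared with each other, as CPM per kb of exon. GF library 2 stood apart, with counts on 22674 genes against 15456 to 18495 in the other 10 libraries. The sorting markers were high in both groups. *Pecam1*, which encodes CD31, reached 561 ± 106 CPM (SD, n = 6) in CONV-R and 770.3 ± 207 (n = 5) in GF mice, and the 16 sinusoidal endothelial markers summed to between 37663 and 53851 CPM. The 36 lymphocyte genes together summed to between 70.5 and 91.0 CPM in CONV-R and between 48.7 and 72.2 CPM in GF libraries.

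Most members were close to the limit of counting. The 36 genes held 8905 counts over the 11 libraries, and *Blk* alone held 4615 of them (51.8%). Under 100 counts over all libraries were found for 24 members, and 15 members had counts in all 11 libraries. Per exon length, *Blk*, a Src family kinase of B cells, stood first at a mean of 13.4 CPM per kb. It was followed by *Cd27*, a costimulatory receptor of T, B and NK cells, at 2.83 CPM per kb and by *Lck*, the Src family kinase of the T cell receptor, at 1.66 CPM per kb. The B cell receptor chain *Cd79b* was next at 0.997 CPM per kb, followed by *Tcf7* at 0.648 and the granzyme *Gzma* at 0.617. Down to *Cd79b* each gene was above the next by more than the SD over the 11 libraries, and from *Cd79b* downwards no neighbours in this order differed by more than that. The CD3 chain *Cd3e* reached 0.123 CPM per kb and the cytokine gene *Ltb* came last with 1 count in 1 library. For scale, the 16 sinusoidal markers ranged from 79.8 CPM per kb for *Mcam*, which encodes CD146, to 1078 for *Fcgr2b*, an Fc receptor by which these cells take up immune complexes.

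**Figure D1:**
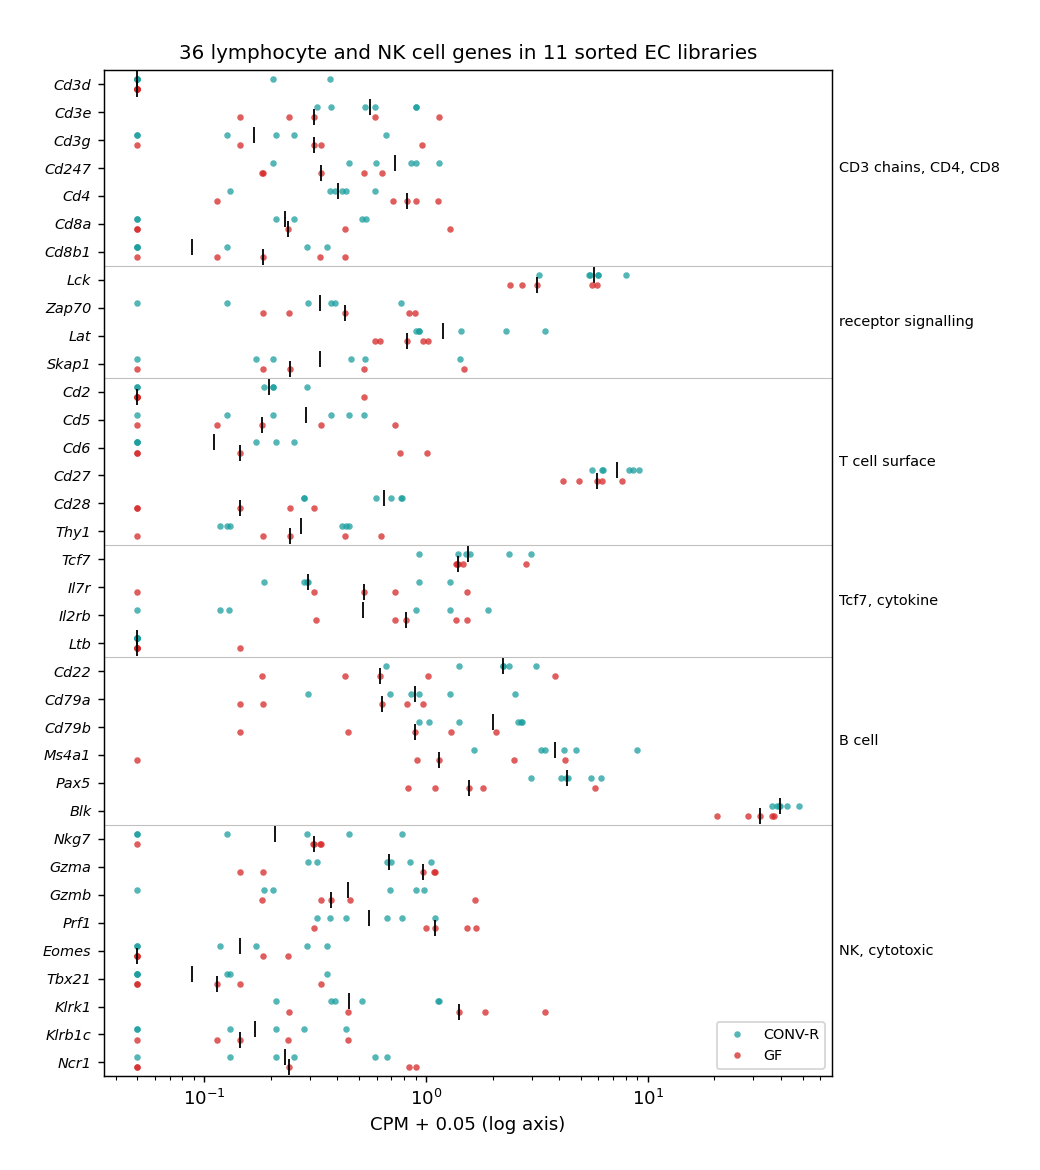
CPM of the 36 lymphocyte and NK cell genes in each library, on a log axis after adding 0.05, grouped by role. Each point is 1 mouse (turquoise, 6 CONV-R; red, 5 GF), the vertical ticks mark group medians and points at the left edge have 0 counts; *Blk*, *Cd27* and *Lck* lie to the right of nearly all other members.

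To find out whether the lymphocyte genes differed with the presence of a microbiota, GF and CONV-R mice were compared with edgeR's quasi-likelihood test across all genes. Of the 36 members, 13 had enough counts for this test and 23 did not. No member passed the threshold of 0.05 after Benjamini-Hochberg adjustment over the 12905 tested genes, whereas 965 tested genes did (7.48%, of which 2.67% of the tested genes were lower and 4.80% higher in GF mice). With an unadjusted p under 0.05, 4 tested members were lower in GF mice, namely *Blk*, *Pax5*, *Lat* and *Ms4a1*, against 10.5% of all tested genes, and 0 were higher, against 12.5%. A fit that kept every gene with a count also called 0 of the 36 members, against 4.48% of 25329 genes, and 5 members had an unadjusted p under 0.05, all lower in GF mice, against 6.99%. DESeq2 gave no adjusted p for 8 members and called 0 of the rest, against 9.83% of the 15540 genes with an adjusted p. With an unadjusted p under 0.05, DESeq2 had 5 members lower in GF mice, against 6.29% of genes. With voom of limma 0 of the 13 members were called, against 7.50%, and 4 were lower at an unadjusted p under 0.05, against 11.2%. The median Log2FC (GF against CONV-R) of the 13 tested members was -0.53, with 10 of them below 0, while that of all tested genes was -0.01, with 50.9% below 0. Over all 36 members, without the filter, the median was -0.04, with 19 below 0, beside 0.06 and 46.1% for all counted genes. Of the 13 tested members 6 are B cell genes.

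**Figure D2:**
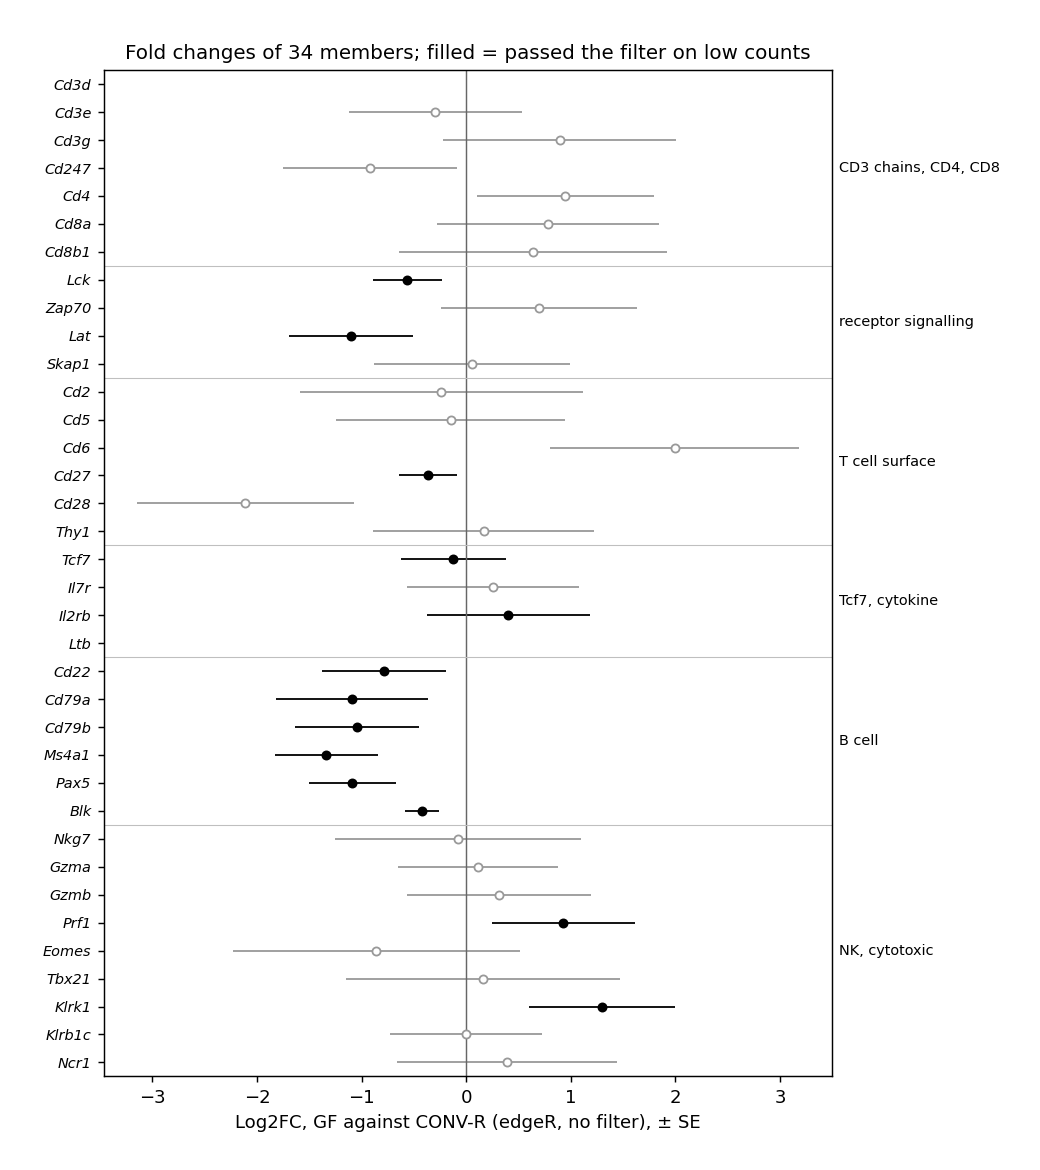
Log2FC ± SE of 34 members, GF against CONV-R, from the edgeR fit without a filter on low counts. *Cd3d* and *Ltb* are left out because 1 group had no counts; filled points are the 13 members that passed the filter, and the 6 B cell genes all lie left of 0.

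Each gene with a count was also compared between mice by a two-sided exact permutation test of mean CPM over all 462 splits into 5 and 6 mice, whose smallest possible p is 0.00216. In 3 members the unadjusted p was under 0.05, *Blk*, *Cd28* and *Pax5*, each lower in GF mice, against 5.71% of 25329 genes. In the other direction there were 0 members, against 6.81%. On raw counts without scaling 5 members were lower by this exact test, against 9.50% of genes. In 0 members were the 2 groups free of overlap, against 3.02% of all genes with a count.

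The antigen receptor chains and coreceptors were near 0 in both groups, and none of the 7 had enough counts for the edgeR test with the filter. *Cd3e*, a CD3 chain required for any T cell receptor on the surface, had between 4 and 11 counts, with a median of 6.5, in CONV-R libraries. It had 17, 2, 1, 2 and 4 counts in GF libraries 1, 2, 4, 5 and 6, the order in which GF values are given throughout. The groups overlapped, with the highest value in GF library 1. *Cd247*, the zeta chain that holds most of the signalling motifs, had between 2 and 11 counts with a median of 8.5 in CONV-R libraries, and 9, 3, 5, 1 and 1 counts in the GF libraries. The values of *Cd247* overlapped as well (two-sided exact permutation test, p = 0.113), and its exons overlap those of *Pou2f1* on the opposite strand, so its few counts may include reads of that gene.

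*Cd3d* had 2 counts in CONV-R library 1 and 4 in CONV-R library 4, and 0 in the other 9 libraries. Against a floor of 3 counts over the GF group the ratio of CONV-R to GF would be 1.46, if the 6 CONV-R counts were exact. As 4 CONV-R libraries also had 0 counts, no minimum fold can be drawn from this ratio. Mean CPM of *Cd3d* did not separate GF from CONV-R mice (unadjusted p = 0.455 by exact permutation, two-sided). *Cd3g* had 0 to 5 counts per CONV-R library and 0 to 14 per GF library. The coreceptors *Cd4*, *Cd8a* and *Cd8b1* had 56, 40 and 17 counts over all libraries. *Cd4* was above the highest CONV-R value in 4 of 5 GF libraries and below the lowest in GF library 1 (0.687 ± 0.381 CPM, n = 5, against 0.340 ± 0.149, n = 6; two-sided exact permutation test, p = 0.0758). *Cd4* is also carried by some myeloid cells, and the groups overlapped.

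GF library 1 held 31 of the 102 counts of *Cd3d*, *Cd3e* and *Cd3g* (30.4%) and 12.9% of all library counts. In CPM the 3 chains summed to 2.01 in this library, to between 0.19 and 0.54 in the other 4 GF libraries and to between 0.32 and 1.47 in the CONV-R libraries. *Cd8a* had its highest value there too, with 19 of 40 counts. Of the T cell receptor constant genes, *Trac* (alpha chain) was highest there as well, with 28 of 76 counts, while *Trbc1* and *Trbc2* (beta chain) had 0 of 33 and 2 of 40 counts in this library. These values describe 1 mouse, and the group difference of the CD3 chains was smaller than the spread between libraries.

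Of the receptor-proximal genes, the kinase *Lck* and the adaptor *Lat* were the members with enough counts to be tested, and neither passed the adjusted threshold. *Lck* lay between 3.18 and 7.96 CPM, with a median of 5.68, in CONV-R libraries. The GF libraries had 2.34, 5.87, 2.66, 5.54 and 3.12 CPM. Of these, libraries 2 and 5 fell among the CONV-R values and the other 3 lay below all of them (Log2FC -0.53 ± 0.32 SE, adjusted p = 0.335 in edgeR's quasi-likelihood test). *Lat* lay between 0.858 and 3.41 CPM, with a median of 1.14, in CONV-R libraries. In the GF libraries it reached 0.973, 0.769, 0.571, 0.924 and 0.542 CPM. The GF values were close together and all under the CONV-R median, while CONV-R libraries 1 and 5 were high (Log2FC -1.08 ± 0.49 SE, adjusted p = 0.193 in edgeR's quasi-likelihood test). Without CONV-R library 1 the Log2FC of *Lat* was -0.72 (adjusted p = 0.369 in the same edgeR test). *Zap70*, the kinase that docks on the CD3 chains, had 21 counts over the CONV-R and 26 over the GF libraries. *Skap1*, an adaptor of T cell adhesion, had 32 and 24, with its highest values in CONV-R library 5 and GF library 2. *Lck* thus had 594 counts where *Zap70*, which acts directly after it in T cells, had 47; per exon length the means were 1.66 and 0.123 CPM per kb.

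*Lck* is transcribed from a proximal and a distal promoter, and gene counts do not separate them. The 250 bases before each start are shown, with those of *Cd79a* and *Pax5* as a receptor chain and the master regulator of the B cell genes compared here. The sequences are those of RefSeq on GRCm38.p6, in which 25 of the 36 members had an entry, with 30 promoters in all. Capitals mark the 6 bases CAGGTG, a sequence bound by E proteins, and AGGAAG, which holds the core of Ets factor sites, on either strand.
*Lck* proximal, chr4:129558373-129558622, minus strand: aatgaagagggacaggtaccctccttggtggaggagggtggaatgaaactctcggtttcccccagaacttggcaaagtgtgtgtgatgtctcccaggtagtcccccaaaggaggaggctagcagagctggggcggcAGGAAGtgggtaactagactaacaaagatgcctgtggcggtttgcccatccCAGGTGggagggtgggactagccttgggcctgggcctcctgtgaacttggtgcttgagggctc
*Lck* distal, chr4:129573642-129573891, minus strand: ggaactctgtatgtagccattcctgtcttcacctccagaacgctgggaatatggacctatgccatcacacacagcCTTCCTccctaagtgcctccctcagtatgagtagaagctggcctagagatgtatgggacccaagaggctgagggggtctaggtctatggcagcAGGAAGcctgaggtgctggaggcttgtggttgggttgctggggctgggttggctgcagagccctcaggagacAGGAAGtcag
*Cd79a*, chr7:24897247-24897496, plus strand: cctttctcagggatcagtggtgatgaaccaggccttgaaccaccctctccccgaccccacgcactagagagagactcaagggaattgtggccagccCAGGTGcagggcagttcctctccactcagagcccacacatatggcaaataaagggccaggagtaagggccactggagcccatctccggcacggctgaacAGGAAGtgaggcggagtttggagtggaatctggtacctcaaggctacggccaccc
*Pax5*, chr4:44710695-44710944, minus strand: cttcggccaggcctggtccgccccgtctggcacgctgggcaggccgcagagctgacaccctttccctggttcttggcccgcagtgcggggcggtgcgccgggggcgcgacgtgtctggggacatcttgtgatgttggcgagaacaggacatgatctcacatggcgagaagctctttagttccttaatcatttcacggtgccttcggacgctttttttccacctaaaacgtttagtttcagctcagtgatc
CAGGTG was found in 43.3% of the 30 member promoters and in 17.2% of 32851 RefSeq promoters of the same length. For AGGAAG the shares were 53.3% and 29.5%. The octamer ATGCAAAT, bound by Oct factors in immunoglobulin promoters, was in 0 of the 30 and in 1.60% of all promoters, and the TATA box letters TATAAA were in 3.33%, a *Tcf7* promoter, and in 12.4%. The *Pax5* sequence held none of these letters. A match describes the letters of these windows and was not related to the counts.

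Among the T cell surface molecules *Cd27* was the best counted, with 834 counts. It lay between 5.58 and 9.11 CPM, with a median of 7.23, in CONV-R libraries. In GF mice *Cd27* reached 5.84, 6.15, 7.61, 4.09 and 4.87 CPM. The values overlapped, with GF libraries 5 and 6 below all CONV-R libraries (Log2FC -0.35 ± 0.24 SE, adjusted p = 0.409 in edgeR's quasi-likelihood test). The standard deviation of *Cd27* was 20.2% of the mean in CONV-R and 23.4% in GF mice, the narrowest spread among the 36 members after *Blk* in both groups.

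*Cd28*, the costimulatory receptor of naive T cells, had too few counts for the edgeR test with the filter. It had between 3 and 9 counts, with a median of 7, in CONV-R libraries and 3, 1, 0, 2 and 0 counts in the GF libraries. All 5 GF values in CPM were under the CONV-R median and 4 were below the lowest CONV-R value, so the groups overlapped through GF library 5 (0.519 ± 0.232 CPM, n = 6, against 0.111 ± 0.118, n = 5; two-sided exact permutation test, p = 0.0152, unadjusted). In the edgeR fit without the filter its Log2FC was -2.11 ± 1.04 (SE), with a Benjamini-Hochberg adjusted p of 0.273. The other surface genes had few counts. *Cd2*, *Cd5*, *Cd6* and *Thy1*, which serve adhesion and the tuning of receptor signals, had 14, 29, 28 and 30 counts over all libraries. Of the 28 counts of *Cd6*, GF library 1 held 11 and GF library 2 held 10. The 5 counts of *Cd2* in GF mice all came from library 4.

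In the group of *Tcf7* and the cytokine genes no difference exceeded the spread between mice. *Tcf7*, the transcription factor of naive and memory T cells and of innate lymphoid precursors, lay between 0.882 and 2.93 CPM with a median of 1.50 in CONV-R libraries. GF values were 1.43, 2.79, 1.33, 1.32 and 1.35 CPM. All but that of library 2 were nearly the same, and all 5 lay inside the CONV-R range (Log2FC -0.09 ± 0.41 SE, adjusted p = 0.931 in edgeR's quasi-likelihood test), and the sign turned without CONV-R library 1 or 2 (Log2FC 0.01 and 0.12). *Il2rb*, a receptor chain for IL-2 and IL-15 on NK and memory T cells, lay between 0 and 1.86 CPM, with a median of 0.469, in CONV-R libraries. It reached 1.49, 0.673, 0.761, 1.32 and 0.271 CPM in the GF libraries, all inside the CONV-R range (Log2FC 0.43 ± 0.79 SE, adjusted p = 0.795 in edgeR's quasi-likelihood test). The Log2FC of *Il2rb* was 1.50 with voom of limma (adjusted p = 0.309) and ranged from 0.15, without GF library 1, to 0.64 over the 8 fits with 1 mouse left out in which it had enough counts. *Il7r*, the IL-7 receptor of naive lymphocytes, had 37 counts in each group. *Ltb*, which encodes lymphotoxin beta, had 1 count in GF library 2 and 0 counts in the other 10 libraries, so no fold is given.

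All 6 B cell genes were tested and all 6 had a Log2FC below 0, with a median of -1.03, beside -0.01 for all tested genes. None of the 6 passed the adjusted threshold of edgeR's quasi-likelihood test, against 2.67% of all tested genes called lower, and 3 of them, *Blk*, *Pax5* and *Ms4a1*, had an unadjusted p under 0.05, against 10.5% lower. In bulk RNA fewer cells of a type and less RNA per cell cannot be told apart.

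*Blk* lies at chr14:63372836-63417037 on the minus strand (GRCm38, GENCODE M21) and was by far the best counted member. It lay between 36.1 and 48.0 CPM, with a median of 39.3, in CONV-R libraries. In GF libraries 1, 2, 4, 5 and 6 it reached 32.1, 37.2, 28.2, 36.2 and 20.4 CPM. All 5 GF values were under the CONV-R median and GF libraries 1, 4 and 6 were below all CONV-R values, while libraries 2 and 5 reached the lower end of that group. The means were 40.6 ± 4.20 CPM (SD, n = 6) and 30.8 ± 6.81 (n = 5), and the two-sided exact permutation test gave an unadjusted p of 0.00866. In edgeR's quasi-likelihood test its Log2FC was -0.40 ± 0.15 (SE), with a Benjamini-Hochberg adjusted p of 0.129. The SD of *Blk* was 10.3% of the mean in CONV-R mice, against 25.0% to 73.5% for the other 5 B cell members, and 22.1% in GF mice. *Blk* had far more counts than these genes, and relative to counting error its spread was not narrow. Its variance in CONV-R mice was 5.09 times its counting variance. The values for *Pax5*, *Cd22*, *Cd79b*, *Cd79a* and *Ms4a1* were 3.41, 4.59, 4.66, 6.41 and 17.0.

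*Pax5*, the transcription factor that holds B cell identity, lies at chr4:44524757-44710487 on the minus strand. It lay between 2.94 and 6.13 CPM, with a median of 4.29, in CONV-R libraries. The GF values were 0.778, 5.77, 1.52, 1.06 and 1.76 CPM. GF library 2 was above 5 of the 6 CONV-R libraries and the other 4 GF libraries were below all of them (Log2FC -1.05 ± 0.45 SE, adjusted p = 0.172 in edgeR's quasi-likelihood test). Without GF library 2, the library with counts on the most genes, the Log2FC was -1.84 and the adjusted p was 0.00893, so 1 mouse decided this call. Its exons overlap 2 loci on the opposite strand, *Gm12462* and *5730488B01Rik*.

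*Ms4a1*, which encodes the B cell surface protein CD20, lay between 1.60 and 8.95 CPM, with a median of 3.79, in CONV-R libraries. In the GF libraries it reached 1.10, 0.865, 4.19, 0 and 2.44 CPM. GF libraries 1, 2 and 5 were below all CONV-R values, with 0 counts in library 5, while library 4 was above 4 of the 6 (Log2FC -1.33 ± 0.61 SE, adjusted p = 0.200 in edgeR's quasi-likelihood test). Over the 11 fits with 1 mouse left out the Log2FC of *Ms4a1* ranged from -1.98 to -0.99. The receptor chain *Cd79b* lay between 0.886 and 2.66 CPM in CONV-R libraries, with a median of 1.96, and reached 0.843, 1.25, 0.0951, 0.396 and 2.03 CPM in the GF libraries. GF libraries 1, 4 and 5 lay below all CONV-R values, and library 6 was above the CONV-R median (Log2FC -1.02 ± 0.57 SE, adjusted p = 0.300 in edgeR's quasi-likelihood test).

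Its partner chain *Cd79a* lay between 0.245 and 2.48 CPM in CONV-R libraries, with a median of 0.846, and reached 0.584, 0.769, 0.0951, 0.924 and 0.135 CPM in the GF libraries. The groups overlapped broadly (Log2FC -1.06 ± 0.63 SE, adjusted p = 0.328 in edgeR's quasi-likelihood test). *Cd22*, an inhibitory lectin of B cells, lay between 0.614 and 3.10 CPM in CONV-R libraries, with a median of 2.17, and reached 0.973, 0.385, 0.571, 0.132 and 3.79 CPM in the GF libraries. Library 6 had the highest *Cd22* value of all 11 and 3 other GF libraries were below all CONV-R values (Log2FC -0.78 ± 0.63 SE, adjusted p = 0.502 in edgeR's quasi-likelihood test). The Log2FC of *Cd22* was -1.82 without GF library 6 (adjusted p = 0.0814 in the same edgeR test), -0.50 without GF library 5 and -1.25 with voom of limma. The GF library that stood high therefore differed from gene to gene: library 2 for *Pax5*, library 4 for *Ms4a1* and library 6 for *Cd22* and *Cd79b*.

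**Figure D3:**
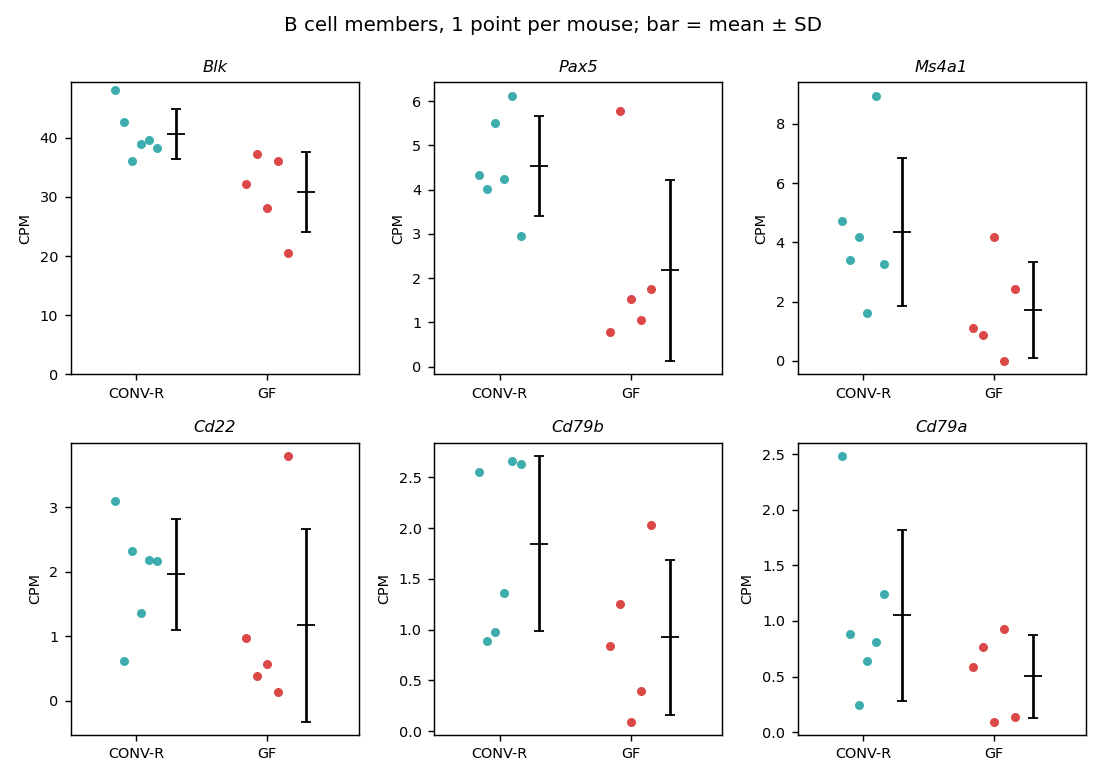
CPM of the 6 B cell members in each library, with a separate linear axis per gene. Points are mice (turquoise, 6 CONV-R; red, 5 GF) and bars give the mean ± SD; the groups overlap for every gene, with GF library 2 high for *Pax5* at 5.77 CPM and GF library 6 for *Cd22* at 3.79 CPM.

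Summed over the 6 genes, CONV-R libraries held between 48.2 and 65.2 CPM and GF libraries between 30.6 and 46.3 CPM, sums in which *Blk* is the largest part. Without *Blk*, the other 5 summed to between 9.22 and 20.7 CPM in CONV-R and between 2.51 and 10.2 CPM in GF libraries, and the groups overlapped. These sums are descriptions without a test. The spread between mice exceeded counting error: the variance of *Ms4a1* was 17.0 and 14.8 times its counting variance in CONV-R and GF mice, and that of *Pax5* in GF mice 18.8 times.

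Of a further 15 B and plasma cell genes, 10 had enough counts to be tested, and 2 were called lower, against 2.67% of all tested genes. The complement receptor *Cr2* fell from 46.6 ± 8.17 CPM (n = 6) to 29.2 ± 9.25 (n = 5), a Log2FC of -0.67 with an adjusted p of 0.0383 in edgeR's quasi-likelihood test. *Ighd*, the heavy chain of IgD on naive B cells, fell from 10.8 ± 6.15 to 3.61 ± 1.59 CPM (Log2FC -1.56, adjusted p = 0.0327 in the same edgeR test). With 1 mouse left out, *Cr2* was called in 4 of 11 fits and lost without CONV-R libraries 2, 3, 4 or 5 or GF libraries 1, 4 or 6 (adjusted p from 0.0152 to 0.0980 in edgeR's quasi-likelihood test). *Ighd* was called in 5 of 11 and lost without CONV-R libraries 1, 3, 4 or 5 or GF libraries 2 or 6 (adjusted p from 0.0195 to 0.0785), and it was not called with voom of limma (adjusted p = 0.0971). The other 8 tested genes did not pass, and 9 of the 10 had a Log2FC below 0, with a median of -0.97, beside 50.9% and -0.01 for all tested genes. Over all 15 genes, in the fit without the filter, 11 were below 0 and 4 above, with a median of -0.76, beside 46.1% below 0 and a median of 0.06 for all counted genes. *Ighm*, the heavy chain of IgM, was the B cell gene of this list with the highest level per exon length, at 5.13 CPM per kb (Log2FC -0.93, adjusted p = 0.145 in edgeR's quasi-likelihood test). In summed CPM the 15 genes lay between 78.9 and 134 in CONV-R and between 51.1 and 66.6 in GF libraries, without overlap and without a test. *Cr2*, at 46.6 and 29.2 CPM, was a large part of these sums, whose means were 102 and 56.8 CPM.

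The NK and cytotoxic genes were weakly counted, and *Prf1* and *Klrk1* were the members with enough counts to be tested. *Klrk1*, the activating receptor NKG2D, lay between 0.160 and 1.10 CPM, with a median of 0.403, in CONV-R libraries. In GF libraries 1, 2, 4, 5 and 6 it reached 1.36, 0.192, 1.81, 0.396 and 3.39 CPM. GF libraries 1, 4 and 6 were above all CONV-R values and the other 2 were under the CONV-R median (Log2FC 1.31 ± 0.66 SE, adjusted p = 0.245 in edgeR's quasi-likelihood test). Without GF library 6 the Log2FC of *Klrk1* was 0.76 (adjusted p = 0.568 in the same edgeR test). *Prf1*, which encodes perforin, lay between 0.273 and 1.05 CPM in CONV-R libraries, with a median of 0.504. It reached 1.49, 1.63, 1.05, 0.264 and 0.948 CPM in the GF libraries, with libraries 1 and 2 above all CONV-R values and library 5 below them (Log2FC 0.97 ± 0.52 SE, adjusted p = 0.279 in edgeR's quasi-likelihood test). Neither gene passed the adjusted threshold in that test, with an unadjusted p of 0.0633 for *Klrk1* and 0.0792 for *Prf1*.

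The granzymes *Gzma* and *Gzmb* had 81 and 60 counts over all libraries. *Gzma* reached 0.599 ± 0.297 CPM (n = 6) in CONV-R and 0.648 ± 0.488 (n = 5) in GF mice. *Gzmb* had its highest value in GF library 4, with 17 counts. *Ncr1*, the receptor that defines NK cells, had 38 counts in 8 libraries, and *Nkg7*, a granule protein, had 27 in 8 libraries. The NK receptor gene *Klrb1c* had 18 counts, and its exons overlap *Gm44511* on the same strand. The transcription factors *Eomes* and *Tbx21*, which direct NK and cytotoxic T cell fates, had 12 and 11 counts. The 9 genes summed to between 1.30 and 4.42 CPM in CONV-R and between 3.08 and 7.13 CPM in GF libraries, and the groups overlapped.

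Genes outside the 36 that mark the same cells gave mixed results. Of 20 other T cell genes 2 had enough counts, *Lcp2*, an adaptor that T cells share with other blood cells and platelets, at 97.6 ± 14.1 CPM in CONV-R mice, and *Icos*, a costimulatory receptor, at 8.95 ± 2.04 CPM, and neither was called (Log2FC -0.09 and 0.05). The T cell receptor constant genes *Trac*, *Trbc1* and *Trbc2* had too few counts for the test, with 28, 28 and 24 counts over the CONV-R and 48, 5 and 16 over the GF libraries. Of 20 further genes of NK cells, innate lymphoid cells and innate-like T cells, 5 were tested and 1 was called higher, against 4.80% of all tested genes. The called gene was *Zbtb16*, a zinc finger transcription factor of innate-like T cells that other tissues also express. It rose from 0.115 ± 0.0803 CPM (n = 6) to 19.1 ± 17.4 (n = 5), with GF library 1 at 47.3 CPM (Log2FC 7.19, adjusted p = 3.55e-06 in edgeR's quasi-likelihood test). *Cd160*, a receptor of cytotoxic lymphocytes, had the highest mean CPM of that list in CONV-R mice and over all 11 libraries, at 9.26 ± 2.20 and 11.6 ± 5.88 CPM in CONV-R and GF mice (Log2FC 0.32, adjusted p = 0.539 in edgeR's quasi-likelihood test).

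Several genes shared by all leukocytes, and most genes of macrophages, were higher in GF mice. All 14 pan-leukocyte genes were tested. *Sla*, *Cd53* and *Laptm5* were called higher in GF mice, against 4.80% of all tested genes (Log2FC 1.58, 1.30 and 1.36, adjusted p = 0.0443, 0.0166 and 0.0453 in edgeR's quasi-likelihood test). Called lower were 0, against 2.67%, and the median Log2FC was 0.46, beside -0.01 for all tested genes. The pan-leukocyte sum lay between 102 and 152 CPM in CONV-R and between 119 and 237 CPM in GF libraries. Of 10 Kupffer cell genes, which mark the resident macrophages of the sinusoids, all were tested and 7 were called higher, against 4.80% of all tested genes. The median Log2FC of the 10 was 1.55, beside -0.01 for all tested genes. By adjusted p in the same edgeR test *Csf1r* and *Adgre1* led (Log2FC 1.85 and 1.97, adjusted p = 0.00589 and 0.00952). With DESeq2 *C1qb* and *C1qc* had a smaller adjusted p than these 2 (0.000167 and 0.000675, against 0.00267 and 0.00552). The Kupffer cell sum lay between 85.8 and 222 CPM in CONV-R and between 197 and 929 CPM in GF libraries, highest in GF library 6. In that library *Klrk1* and *Cd22* were also highest, while *Blk* was at its lowest and *Ncr1* and *Nkg7* had 0 counts. With 1 mouse left out, *Csf1r*, *Adgre1* and *C1qb* were called in 11 of 11 fits, *C1qc* in 10, *Clec4f* and *Vsig4* in 7 and *Timd4* in 5, and *Timd4* was not called with voom of limma (adjusted p = 0.0588). Of the pan-leukocyte genes, *Cd53* was called in 10 of these fits, *Sla* in 4 and *Laptm5* in 3. The part of macrophage RNA in the values of the lymphocyte genes was not tested.

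**Figure D4:**
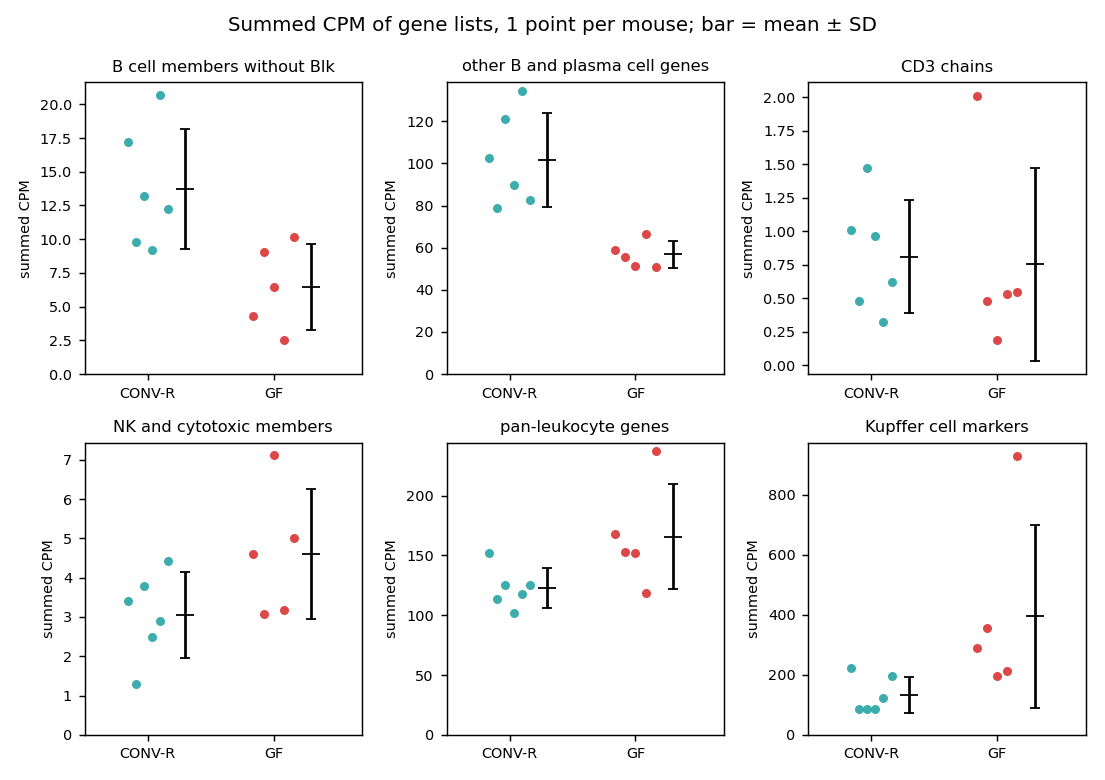
Summed CPM per library of 6 gene lists, with a separate linear axis for each: the B cell members without *Blk*, the other B and plasma cell genes, the 3 CD3 chains, the NK and cytotoxic members, the pan-leukocyte genes and the Kupffer cell markers. Points are mice (turquoise, 6 CONV-R; red, 5 GF) and bars give the mean ± SD. The other B and plasma cell genes, with *Cr2* a large part of the sum, lie apart, at 78.9 to 134 CPM in CONV-R and 51.1 to 66.6 CPM in GF libraries. The Kupffer cell sum reaches 929 CPM in GF library 6.

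Among the markers of further cell types, the 8 neutrophil genes had too few counts for a test and summed to between 0.135 and 3.68 CPM. Hepatocyte, stellate cell, erythroid and platelet lists had 7, 3, 3 and 3 tested genes, of which 0 were called, against 7.48% of all tested genes in either direction. The erythroid list summed to between 16.3 and 29.7 CPM in CONV-R and between 4.06 and 21.8 CPM in GF libraries, with means of 20.4 and 11.6 CPM, and its 3 tested genes all had a Log2FC below 0 (median -0.83). The cholangiocyte list summed to between 0.136 and 8.94 CPM in CONV-R and between 13.6 and 36.7 CPM in GF libraries, without overlap and without a test. The part of RNA from these cells in the values of the B cell genes was not tested. Of 16 sinusoidal endothelial genes 0 were called as well. The dendritic cell list summed to between 683 and 864 CPM in CONV-R and between 597 and 833 CPM in GF libraries. *Zbtb46* and *Clec9a* made up nearly all of this sum, at means of 474 and 265 CPM in CONV-R and 361 and 335 CPM in GF mice, and *Siglech*, *Flt3*, *Xcr1* and *Itgax* had at most 4.90 CPM in any library (*Itgax* in CONV-R library 3). *Zbtb46*, also expressed by endothelium, fell (Log2FC -0.39, adjusted p = 0.0443 in edgeR's quasi-likelihood test), and *Spp1* of the cholangiocyte list rose (Log2FC 2.50, adjusted p = 0.0161 in the same test). With 1 mouse left out, *Zbtb46* was called in 2 of 11 fits and *Spp1* in 11.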

How the data were processed

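RNA of sorted hepatic sinusoidal ECs was sequenced in 50-base single reads. The counts were made by the authors with Trim Galore, STAR on GRCm38 and featureCounts, and were deposited without normalization. The authors removed 1 GF library with few mapped reads. The annotation release and strand setting of the counting are not given in the sources used here, so reads of overlapping genes could not be told apart. Groups follow the sample labels. The deposited normalized values were not used.

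Counts were analysed in R 4.3.3 with edgeR 4.0.16 (filterByExpr, TMM normalization, quasi-likelihood test, no covariate, Benjamini-Hochberg adjustment, threshold 0.05). Fold changes are GF against CONV-R. Exact permutation tests counted the splits of the 11 mice with an absolute difference in mean CPM at least as large as the observed one. Floors used 3 counts over a group without counts and cover the counting error of that group only. Gene positions and exon lengths came from GENCODE M21. DESeq2 1.42.0, voom of limma 3.58.1, DESeq2 size factors, no filter, at least 10 counts in every library, a replicate block, other scalings of CPM and the removal of each mouse were alternatives. The tests were tried on simulated data. Plots were drawn with matplotlib 3.10.9.

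The 36 genes, the gene lists and the motifs were chosen with earlier results of these data known. Values per library are given for members with an exact permutation p under 0.05, the 2 members of each role with the highest mean CPM and members of which 1 library held most counts; the remaining B cell members were added. From the other lists, genes past the threshold (at most 5 per list), genes of high mean CPM and the sorting markers could be named, and those a result turns on are given. *Trac*, *Ighm* and *Fcgr2b* were added.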

Additional observations from a re-analysis of the deposited data

Results flagged for a closer look

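Within each group the highest and lowest library were compared with the rest by Dixon's criterion. Of 88 groups of values examined, 11 had a library that stood apart. The nominal rate of about 1 in 20 groups, here 4.4, holds for independent and normally distributed values. Counts near 0 are not normally distributed and the sums share genes, so the 11 cannot be judged against the 4.4. Most of these genes had few counts, so 1 or a few reads decide the value. In GF library 2, *Pax5* was at 5.77 CPM against 0.778 to 1.76 in the other 4 GF libraries, *Tcf7* at 2.79 CPM against 1.32 to 1.43, and *Ltb* at 0.0962 CPM, which is 1 count, against 0. In GF library 4, *Gzmb* was at 1.62 CPM against 0.132 to 0.406 and *Cd2* at 0.476 CPM against 0. In GF library 6, *Cd22* was at 3.79 CPM against 0.132 to 0.973 and *Nkg7* was listed at 0 CPM against 0.259 to 0.288. Among CONV-R libraries, *Cd3g* was at 0.613 CPM in library 3 against 0 to 0.205, *Skap1* at 1.37 CPM in library 5 against 0 to 0.481 and *Tbx21* at 0.310 CPM in library 6 against 0 to 0.0806. The sum of all members without *Blk*, *Lck* and *Cd27* was lowest in GF library 5, at 12.01 CPM against 20.3 to 23.0.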

How the results depend on the processing

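The count of 0 members past the adjusted threshold was the same with DESeq2 size factors, DESeq2, voom, no filter and at least 10 counts in every library, a filter that left 4 members to test. Leaving out 1 mouse gave 0 to 1 called members that were lower and 0 that were higher; the call was *Pax5* without GF library 2, 1 of 14 tested members against 5.95% of all tested genes. In the fit without a filter, leaving out 1 mouse gave 0 to 1 calls, *Pax5* without GF library 2 (adjusted p = 0.00697, edgeR's quasi-likelihood test; 1 of 35 members against 4.19% of genes) and *Ms4a1* without GF library 4 (adjusted p = 0.00583; 1 of 36 against 4.95%). The median Log2FC of the tested members ranged from -0.73 to -0.38, and *Tcf7* changed sign, from -0.37 to 0.12, turning positive without CONV-R library 1 (0.01) or 2 (0.12). Leaving out 1 mouse gave 0 to 1 members without overlap in each direction, against 1.88% to 2.92% of genes higher and 1.46% to 2.37% lower. By the exact permutation test, 0 to 1 members were then higher and 2 to 4 lower with p under 0.05, against 5.38% to 8.0% and 4.32% to 5.90% of genes. On raw counts without scaling, 5 members were lower by that exact test, against 9.50% of genes.

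Same-numbered mice did not deviate together: the correlations were 0.201, 0.048, -0.014, 0.024 and 0.094, and 2 of the 5 GF libraries correlated best with their own number. With the replicate block over 10 libraries, 0 of 11 tested members were called with the filter, against 8.6% of all tested genes, and 3 of 36 without it (*Ms4a1*, *Pax5* and *Blk*), against 6.2%, and the median Log2FC was -1.08 over those 11 members.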

Other observations

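The following values were chosen after they were seen. *Ccr7*, the homing receptor of naive lymphocytes and of migrating dendritic cells, had 6 to 17 counts per CONV-R library and 0 to 2 per GF library. It did not pass the filter, and the groups did not overlap (two-sided exact permutation test, unadjusted p = 0.00433). *Cxcr5*, the receptor that leads B cells to follicles, lay between 1.364 and 5.39 CPM in CONV-R and between 0.677 and 1.362 CPM in GF libraries, by a narrow margin without overlap (Log2FC -1.40, adjusted p = 0.0509 in edgeR's quasi-likelihood test).

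*Blk* among the 36 genes and *Lcp2* among the other T cell genes were counted far above the rest of their lists, with means of 13.4 and 21.3 CPM per kb. In CONV-R mice they reached 40.6 ± 4.20 and 97.6 ± 14.1 CPM (SD, n = 6), and *Blk* reached 30.8 ± 6.81 CPM in GF mice (n = 5). Whether these counts come from the endothelium or from other cells was not tested.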
